A study of Mus musculus with 6 samples.

Results

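The Hox genes encode the homeodomain transcription factors that mark position along the body axis. The 39 protein-coding genes named Hox with a cluster letter from a to d and a number were taken from the 78409 rows of the deposited expression table, of which 21807 are protein-coding rows. The libraries came from MCEC, a mouse cardiac endothelial cell line, in 2 groups of 3. The control group has the genotype Wildtype and the other the genotype ShFat4, a knockdown by short hairpin RNA of Fat4, an atypical cadherin of planar cell polarity and Hippo signalling. Both groups are the same line, and no further allele, treatment or time is labelled. The labels do not say whether the control cells carried a hairpin of their own or whether replicates were separate cultures. The p-values below therefore measure only library-to-library spread, some of which may be technical. The series title places the comparison in work on endothelial Fat4 in tumour blood vessel growth and tumour immunity.

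In vertebrates the Hox genes sit in clusters in which gene order follows the order of their use along the head to tail axis. Genes of low paralog number act anteriorly and genes of high number posteriorly, and genes of the same number in different clusters are paralogs. Adult cells often keep part of the code of the place where their precursors arose, held by Polycomb repression and trithorax activation, and Hox proteins bind DNA together with cofactors of the PBX and MEIS families. In endothelial cells, Hox proteins are known as regulators of the quiescent and the migratory, vessel-forming state.

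Library totals ran from 10305810 to 11870091 counts. A count of 0 in 1 library allows up to 3 counts, or 0.253 to 0.291 CPM (counts scaled to a common library total), and a count of 0 in all 6 allows up to 0.0452 CPM, limits that cover counting error only. Fat4 had 10, 22 and 31.5 counts in the controls and 8.5, 10 and 9 in the knockdown libraries. Control replicate 1 lay within the knockdown range once scaled for depth, and the edgeR quasi-likelihood test gave Fat4 a log2 fold change of -1.17 with an SE of 0.36 (adjusted p = 0.0391), against p = 0.2 in a two-sided exact permutation test, which cannot go below 0.1 at n = 3. The edgeR call was lost when any library other than control replicate 1 was left out (adjusted p 0.0877 to 0.207). Control replicate 1 differed most from its group (chi-square per degree of freedom 4.70 and 8.27 against the other controls, which differed by 2.27), and 3032 genes passed without it against 2242 with it, 922 without control replicate 2, 1096 without control replicate 3, 1194 without knockdown replicate 1 and 1110 without knockdown replicate 2. Of 10 endothelial markers 1, Egfl7, reached a mean of 1 CPM over the libraries, and 5 (Tie1, Vwf, Erg, Cldn5 and Emcn) had no count in any library. Defining endothelial markers were thus largely absent from libraries labelled as endothelial, while all 8 mesothelial markers reached a mean of 1 CPM, of which Krt8 and Krt18 lay below 1 CPM in control replicate 3.

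The code was one of few genes, most of them in the Hoxa cluster. A Hox gene was called expressed at 1 CPM or more in every library, scarce with any lower count, and without a count at 0 in all 6. By that rule 6 genes were expressed, among them Hoxa4, Hoxa5, Hoxa9, Hoxa10 and Hoxc13, 23 were scarce and 10 had no count. The 6 expressed genes held 92.0% of all Hox counts. At 2 CPM in every library, or at 1 CPM per kilobase of exon, 4 stayed in the code, among them Hoxa4, Hoxa5 and Hoxa10, and Hoxa9 and Hoxc13 left it.

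**Figure D1:**
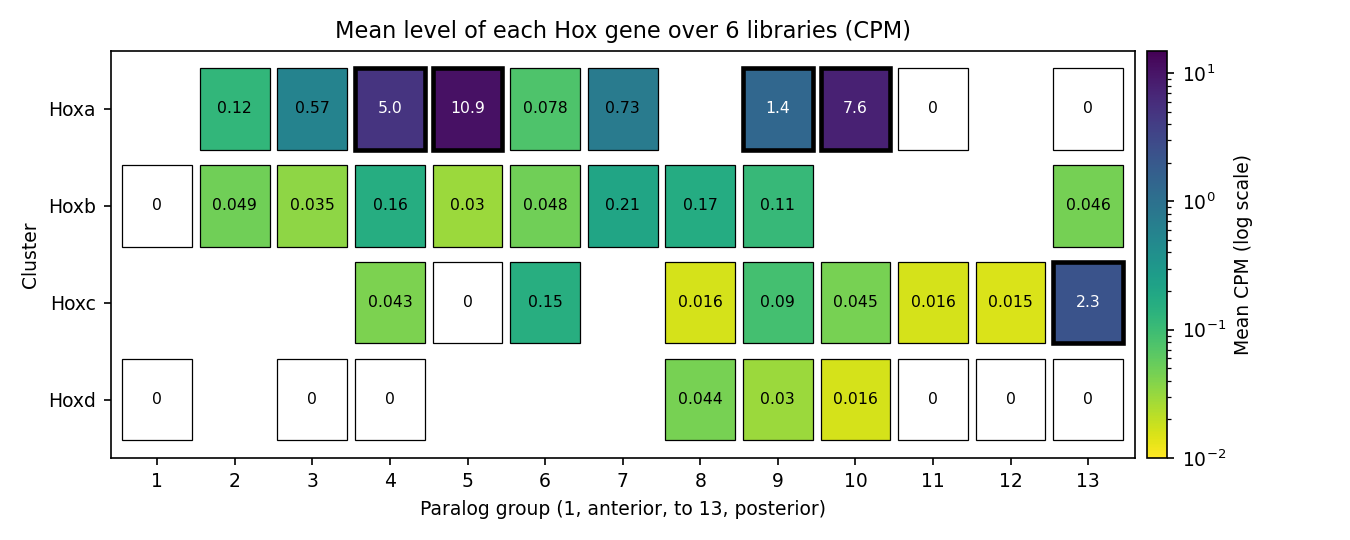
Mean CPM over 6 libraries of each Hox gene, not divided by length, by cluster (rows) and paralog group (columns); heavy borders mark expressed genes, white boxes genes with no count, and gaps places with no gene or none shown. Hoxa5 (10.9 CPM) and Hoxa10 (7.62 CPM) lead the Hoxa row, Hoxc13 stands alone in the Hoxc row, and no gene of the Hoxb or Hoxd row reaches 0.21 CPM.

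The expressed genes differ in the homeobox, the coding stretch of the DNA-binding homeodomain, and sequences of 4 of them are shown because paralogs can share reads. Each was read from GENCODE M21 transcripts of the GRCm38 build, 5′ to 3′ on the coding strand, and lies in exon 2 of 2. On GRCm38 the positions are chr6:52190483-52190662 for Hoxa4, chr6:52202632-52202811 for Hoxa5 and chr6:52232554-52232733 for Hoxa10, all on the minus strand, and chr15:102927210-102927389 on the plus strand for Hoxc13. Capitals mark 18 bases that encode the invariant stretch of the third, DNA-recognising helix.
Hoxa4: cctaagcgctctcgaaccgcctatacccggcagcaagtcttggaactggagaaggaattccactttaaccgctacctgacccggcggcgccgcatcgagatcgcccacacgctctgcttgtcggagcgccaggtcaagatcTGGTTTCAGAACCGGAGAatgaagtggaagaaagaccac
Hoxa5: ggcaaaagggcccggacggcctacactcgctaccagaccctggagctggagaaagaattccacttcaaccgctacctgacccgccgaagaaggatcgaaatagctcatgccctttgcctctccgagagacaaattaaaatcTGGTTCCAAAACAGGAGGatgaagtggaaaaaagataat
Hoxa10: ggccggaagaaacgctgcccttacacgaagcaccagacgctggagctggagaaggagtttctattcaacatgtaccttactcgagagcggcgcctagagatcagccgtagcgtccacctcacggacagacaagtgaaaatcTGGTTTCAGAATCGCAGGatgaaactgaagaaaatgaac
Hoxc13: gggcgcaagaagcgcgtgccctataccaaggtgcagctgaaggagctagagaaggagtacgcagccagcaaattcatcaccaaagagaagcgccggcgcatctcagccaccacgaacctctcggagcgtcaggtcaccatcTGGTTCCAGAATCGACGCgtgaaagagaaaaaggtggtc
Over 180 bases Hoxa5 and Hoxc13 were 48.3% identical, Hoxa4 and Hoxa5 71.1%, and the neighbours Hoxa9 and Hoxa10 77.2%. The nearest homeobox of any Hox gene to each was 83.9% identical or less. No 50-base stretch of the transcripts of Hoxa4, Hoxa5, Hoxa10 or Hoxc13 occurred in another gene's transcripts, and 0.65% of those of Hoxa9 occurred in the overlapping Mir196b. Stretches were compared in the sense direction only. On the opposite strand, exons of Hoxa4, Hoxa9, Hoxa10 and Hoxc13 overlap noncoding rows, each with 10 counts or fewer over the libraries. The counts of Hoxa4, Hoxa5, Hoxa9, Hoxa10 and Hoxc13 were whole in all libraries, with no fractional share of a read among them.

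Between the groups, 1 of the 6 tested Hox genes, Hoxc13, passed the test, in the lower direction, against 16.8% of 13372 tested genes (8.04% lower and 8.73% higher). Among the 4050 genes with a mean level in the range of the tested Hox genes, 8.35% passed, 5.06% lower. The groups did not overlap after TMM scaling for 2 of the 6, Hoxa5 and Hoxc13, both lower, against 34.9% of all tested genes in either direction and 17.5% lower. The 6 log2 fold changes lay below 0, where 52.2% of all tested genes did, with a median of -0.25 against -0.01. Summed over the 39 genes the level was 39.1 ± 2.21 CPM in the controls and 31.6 ± 1.58 CPM in the knockdown (SD, n = 3 each), given without a test. This sum is in plain CPM, without TMM scaling. With library-size scaling the median log2 fold change of all tested genes was -0.07. In bulk libraries, fewer expressing cells and less RNA per cell cannot be told apart.

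**Figure D2:**
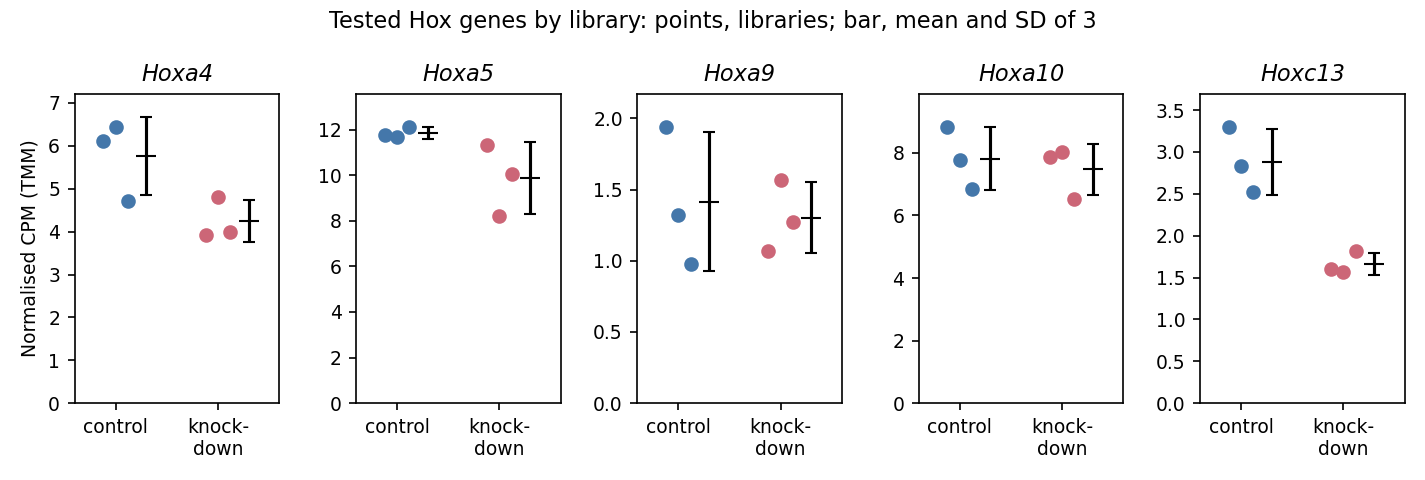
Normalised CPM of Hoxa4, Hoxa5, Hoxa9, Hoxa10 and Hoxc13 in each library (points), with the mean and SD of 3 beside them, control in blue and Fat4 knockdown in red; each axis starts at 0. Hoxc13 and Hoxa5 show no overlap of the groups, and Hoxa4, Hoxa9 and Hoxa10 do.

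Of the anterior genes Hoxa2 and Hoxa3, which pattern the hindbrain and pharyngeal arches, both were scarce. Hoxa2 had 1 or 2 counts in each library, and Hoxa3 had 6, 5 and 11 in the controls and 6, 3 and 7 in the knockdown, where the groups overlapped. Hoxb1, Hoxd1 and Hoxd3 had no count.

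The central genes Hoxa4 and Hoxa5, which pattern the neck and upper thorax and in the case of Hoxa5 the lung, had the highest mean levels per length of the genes named here, though the range of Hoxa4 overlapped that of Hoxa10. Hoxa5 had 121, 132 and 149 counts in the controls and 127, 84 and 111 in the knockdown libraries, which overlap as counts. After scaling, every knockdown library lay below every control, at 9.88 ± 1.56 CPM against 11.8 ± 0.25 CPM (SD, n = 3 each), but the log2 fold change of -0.26 (SE 0.12) did not pass the test (edgeR adjusted p = 0.158). Hoxa4 had 63, 73 and 58 counts in the controls and 44, 49 and 44 in the knockdown, where the highest knockdown count lay below the lowest control count. TMM-scaled levels overlapped at control replicate 3, with 5.76 ± 0.92 CPM against 4.24 ± 0.49 CPM (SD, n = 3 each), while plain CPM did not overlap. The log2 fold change of -0.44 (SE 0.17) did not pass (edgeR adjusted p = 0.0854), though it passed with plain library-size scaling (0.0432) and without control replicate 3 (0.0454).

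Between Hoxa5 and the posterior genes the counts dropped. Hoxa6 had 1, 0 and 0 counts in the controls and 0, 2 and 2 in the knockdown, in a gene that lies 1700 bases from Hoxa5. Hoxa7 had 10, 15 and 4 counts in the controls and 6, 4 and 9 in the knockdown, and it passed 1 CPM in 1 library, control replicate 2. It did not pass the filter on low counts and was not tested. As a pair, Hoxa6 and Hoxa7 stand between the expressed Hoxa5 and Hoxa9 along the chromosome.

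Of the posterior genes, Hoxa10, which patterns the lower trunk, uterus and limb, had 91, 88 and 84 counts in the controls and 88, 82 and 72 in the knockdown libraries. Its level was 7.81 ± 1.0 CPM in the controls and 7.47 ± 0.82 CPM in the knockdown (SD, n = 3 each), a difference within the spread (log2 fold change -0.06, SE 0.14, edgeR adjusted p = 0.816). Hoxa9, which acts in the trunk, in blood stem cells and in endothelial progenitors, had 20, 15 and 12 counts in the controls and 12, 16 and 14 in the knockdown, at 1.41 ± 0.49 CPM against 1.3 ± 0.25 CPM (SD, n = 3 each). Its groups overlapped too, with a log2 fold change of -0.10 (SE 0.30, edgeR adjusted p = 0.864). The sign of Hoxa9 turned without control replicate 1 (0.18) or knockdown replicate 1 (0.03), and that of Hoxa10 without control replicate 1 (0.04) or knockdown replicate 3 (0.03).

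Hoxa11 and Hoxa13, which act in limb and urogenital patterning, had no count in any library, and Hoxa11 lies 1251 bases past Hoxa10. Because the step from Hoxa10 to Hoxa11 is the edge of the expressed Hoxa block, the 250 bases upstream of annotated starts of Hoxa5, Hoxa10 and Hoxa11 are given below, from RefSeq on GRCm38.p6, 5′ to 3′ on the gene's strand, with CpG in capitals. The table of promoters matched 22 of the 39 Hox genes.
Hoxa5: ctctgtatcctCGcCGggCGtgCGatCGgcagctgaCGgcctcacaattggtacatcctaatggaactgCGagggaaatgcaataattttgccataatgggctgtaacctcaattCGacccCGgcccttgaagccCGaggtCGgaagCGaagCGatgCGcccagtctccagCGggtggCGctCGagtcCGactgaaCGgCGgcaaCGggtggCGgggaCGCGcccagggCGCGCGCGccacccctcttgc
Hoxa10: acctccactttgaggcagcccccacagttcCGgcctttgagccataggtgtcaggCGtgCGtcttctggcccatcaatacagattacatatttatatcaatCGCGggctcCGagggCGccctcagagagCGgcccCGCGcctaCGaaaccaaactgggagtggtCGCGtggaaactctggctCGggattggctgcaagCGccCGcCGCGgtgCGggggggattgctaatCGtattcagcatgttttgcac
Hoxa11: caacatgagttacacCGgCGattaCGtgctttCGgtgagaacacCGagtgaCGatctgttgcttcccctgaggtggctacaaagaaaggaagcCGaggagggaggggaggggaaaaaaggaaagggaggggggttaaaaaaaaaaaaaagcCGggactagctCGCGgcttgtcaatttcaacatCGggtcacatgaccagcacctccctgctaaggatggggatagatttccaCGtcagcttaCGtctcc
The Hoxa5 window (chr6:52204588-52204837) held 28 CpG, that of the lower of the listed Hoxa10 starts (chr6:52234940-52235189) 20, and that of Hoxa11 (chr6:52245811-52246060) 13. The median was 6 over all 32851 windows of that table and 12.5 over the 24 Hox windows. CpG number did not follow expression across the windows of the Hoxa cluster, since expressed Hoxa9 held 3, the other Hoxa10 start 7 and Hoxa13, with no count, 35. The Hoxa11 window held no TGATNNAT, TATAAA or CCAAT on either strand. The PBX-HOX-type motif TGATNNAT occurred in 7.68% of all windows and 4 of 24 Hox windows, TATAAA in 12.4% and 4 of 24, and CCAAT in 33.8% and 14 of 24.

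**Figure D3:**
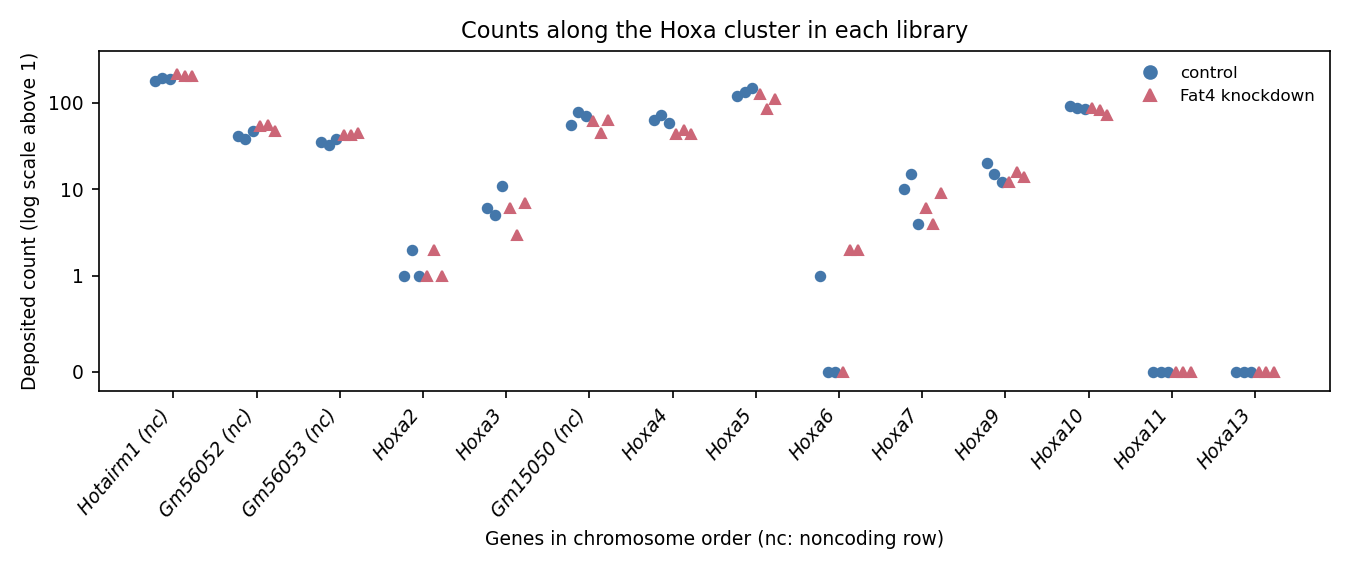
Deposited counts (log axis above 1) of Hoxa2 to Hoxa13 and the 4 noncoding rows that passed the filter, in chromosome order, with circles for control and triangles for knockdown libraries. Counts are high at Hotairm1, at Hoxa4 and Hoxa5 and at Hoxa10, low at Hoxa2 and Hoxa6, and 0 at Hoxa11 and Hoxa13 in each of 6 libraries.

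Hoxc13, the gene of nail and hair, was the one expressed gene outside the Hoxa cluster. It was also the one Hox gene that passed the test, in the lower direction. It had 34, 32 and 31 counts in the controls and 18, 16 and 20 in the knockdown libraries, and the groups did not overlap. Its level went from 2.88 ± 0.39 CPM to 1.66 ± 0.13 CPM (SD, n = 3 each), 1.72-fold lower (log2 fold change -0.78, SE 0.21, edgeR adjusted p = 0.0234). With DESeq2 it missed the threshold (adjusted p 0.129), as it did in edgeR fits that left out control replicate 1 (0.0541), control replicate 2 (0.0753), knockdown replicate 1 (0.0802) or knockdown replicate 2 (0.0833), with the same direction throughout. It stood at the end of an otherwise scarce cluster, 7942 bases from Hoxc12, which had 1 count in all.

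Some markers of other cell types moved with the groups too. The 8 mesothelial markers summed to 1054 to 1187 CPM in the controls and 830 to 864 in the knockdown, with Upk3b the largest part. All 8 were tested and 4 were lower, where 8.04% of all tested genes were. Without passing, Msln (log2 fold change -0.09) and Krt19 (-0.06) lay below 0 and Krt8 (0.58) and Krt18 (0.17) above. The 6 fibroblast markers summed to 2379 to 2545 and 1719 to 1921 CPM, most of it Col1a1. Of 4 tested 2 were lower, and Tcf21 was at 0. Without passing, Pdgfra (-0.47) lay below 0 and Dcn (0.18) above. The 6 smooth muscle and pericyte markers summed to 625 to 679 and 673 to 750 CPM, which overlap, nearly all from Tagln and Acta2. Of these 2, the only ones tested, 1 was higher, Acta2, where 8.73% of all tested genes were. Cnn1 had 6 to 12 counts in a library, and Myh11, Cspg4 and Rgs5 at most 1.5. The 10 endothelial markers summed to 7.92 to 8.95 and 7.18 to 9.04 CPM, which overlap. Their part in the difference of Hoxc13, or in those of the genes that follow, was not tested.

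Per kilobase of exon the order of mean levels over the 6 libraries was Hoxa5 (5.79 ± 0.88 CPM per kb), Hoxa4 (3.14 ± 0.70), Hoxa10 (2.33 ± 0.24), Hoxc13 (0.93 ± 0.31) and Hoxa9 (0.24 ± 0.06), as mean ± SD, n = 6. These SDs pool control and knockdown libraries, so they include any difference between the groups, as for Hoxc13, and are not replicate spread alone. Hoxa4 (from 2.39) and Hoxa10 (up to 2.70) overlapped in range, so their order is not separated by these libraries, and the other neighbours did not overlap. By CPM without length, Hoxa10 stood above Hoxa4.

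By cluster, Hoxa on chromosome 6 held 11 genes and 89.9% of Hox CPM, with 293 to 404 counts a library. Hoxc on chromosome 15 (GRCm39, 102829538 to 102945278) held 9 genes and 7.39%, with 19 to 40 counts, most of them from Hoxc13. Hoxb on chromosome 11 (96085142 to 96259082) had 10 genes, none expressed, with 14.33, 1 and 11.5 counts in the controls and 12, 7 and 11 in the knockdown. Hoxd on chromosome 2 (74498654 to 74595486) gave 6 counts in all over 9 genes. Outside Hoxa no scarce gene went above 5 counts in a library, and 18 scarce genes never went above 3. The 10 genes with no count were Hoxa11, Hoxa13, Hoxb1, Hoxc5, Hoxd1, Hoxd3, Hoxd4, Hoxd11, Hoxd12 and Hoxd13.

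Of 60 noncoding rows inside the clusters 18 had a count and 6 were tested, some of which overlap one another. None of the 6 passed, where 16.8% of all tested genes did. Hotairm1, a noncoding RNA of the Hoxa cluster that is known from myeloid cells, had 180.33, 192.5 and 190.67 counts in the controls and 217.5, 206.67 and 205.5 in the knockdown. The groups did not overlap, also after scaling, as in 34.9% of all tested genes in either direction. Its level was 16.7 ± 1.04 CPM against 19.4 ± 0.80 CPM (SD, n = 3 each; log2 fold change 0.23, SE 0.09, edgeR adjusted p = 0.0877). Gm56052 (log2 fold change 0.35, edgeR adjusted p = 0.158) and Gm56053 (0.37, 0.160) lie inside it on the same strand, and their values were not whole in 4 libraries. Gm15050, on the opposite strand within the span of Hoxa3, was at 5.99 ± 0.77 and 5.25 ± 0.74 CPM (SD, n = 3 each, edgeR adjusted p = 0.441). In the Hoxb span, Gm53 (60.8 ± 9.84 and 66.5 ± 14.4 CPM) and Gm11539 inside it (40.3 ± 2.14 and 41.9 ± 2.22 CPM, SD, n = 3 each) overlap on the same strand, did not pass the test (edgeR adjusted p = 0.550 and 0.603) and were not whole in any library. The 7 miRNA rows of the clusters had no count.

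Of 9 PBX and MEIS class cofactor genes 8 were tested, 2 were lower and 0 higher, where 16.8% of all tested genes passed (8.04% lower), and their median log2 fold change was -0.18. Meis2, a MEIS homeodomain partner, went from 185.8 ± 1.64 to 146.6 ± 11 CPM (SD, n = 3 each, log2 fold change -0.34, edgeR adjusted p = 0.0037). This call held in every alternative run. Pbx2 (log2 fold change -0.20, edgeR adjusted p = 0.0843), Pbx3 (0.22, 0.0792), Pbx4 (-0.15, 0.475), Meis1 (-0.21, 0.302), Meis3 (0.15, 0.376) and Pknox1 (-0.16, 0.196) did not pass. Pbx2 passed with library-size scaling (0.0288) and without control replicate 1 (0.0387) or knockdown replicate 1 (0.0492).

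**Figure D4:**
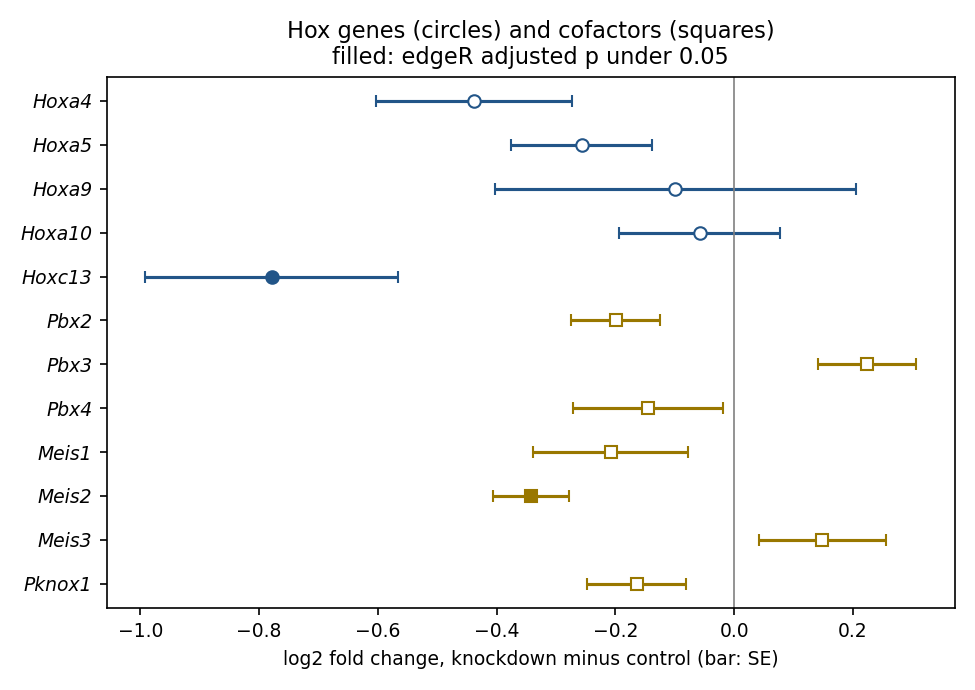
Log2 fold change, knockdown minus control, with its SE, for 5 tested Hox genes (circles) and 7 tested cofactors (squares); filled symbols passed the edgeR test at 0.05. Hoxc13 (-0.78) and Meis2 (-0.34) are filled, both to the left of 0.

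Of 11 Polycomb repressive complex 2 genes 2 were higher and 0 lower, near the 16.8% of all tested genes that passed, and the median log2 fold change was -0.06. Rbbp4, a histone-binding subunit, rose from 134 ± 10.2 to 167 ± 12.4 CPM (SD, n = 3 each, log2 fold change 0.32, edgeR adjusted p = 0.0099), and Eed, the subunit that reads the repressive mark, by 0.22 on the log2 scale (0.0287). Rbbp4 missed the threshold in the fits that left out control replicate 2 (0.0561) or knockdown replicate 2 (0.0517), and Eed with library-size scaling (0.0961) and in the fits that left out control replicate 2 (0.0792), control replicate 3 (0.0857) or knockdown replicate 2 (0.118). Of 19 Polycomb repressive complex 1 genes 1 was higher (Yaf2, 0.20) and 2 were lower, among them Cbx2 (-0.32), a chromodomain reader of the mark, with a median of -0.02, again near the 16.8% over all tested genes. None of the 3 calls held after correction for GC content and length (edgeR adjusted p 0.156 for Cbx2 and 0.278 for Yaf2) or with DESeq2 (0.103 and 0.0900). Yaf2 also missed the threshold with library-size scaling (0.129) and with no filter (0.114). When control replicate 2, control replicate 3 or knockdown replicate 2 was left out, 0 genes of that list passed the edgeR test. Without knockdown replicate 1 or knockdown replicate 3 it was 1 gene, and without control replicate 1 it was 5.

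Of 15 trithorax and associated genes 1 was higher and 3 were lower, against 16.8% of all tested genes that passed (8.04% lower), with a median log2 fold change of -0.11. Kdm6b, a demethylase that removes the Polycomb mark, fell from 101 ± 6.95 to 71.8 ± 4.81 CPM (SD, n = 3 each, log2 fold change -0.49, edgeR adjusted p = 0.000882), and Dpy30, a core subunit of the methyltransferase complexes, rose by 0.48 on the log2 scale (0.0032). Both held in every alternative run. Dot1l (-0.32, edgeR adjusted p = 0.0213) and Kmt2a (-0.19, 0.0388), both histone methyltransferases, were lower in the fit as given. Dot1l missed the threshold when either of control replicates 2 and 3 or either of knockdown replicates 1 and 2 was left out (0.0518 to 0.0931), and Kmt2a when any library but control replicate 1 was (0.0599 to 0.141). After GC and length correction they stood at 0.278 and 0.759, and Kmt2a also missed with DESeq2 (0.125), upper-quartile scaling (0.0514) and no filter (0.0626).

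Of 8 CTCF and cohesin genes, which shape the loops of the clusters, 1 was lower and 0 higher, where 8.04% and 8.73% of all tested genes were. It was Stag2 (-0.30 on the log2 scale, edgeR adjusted p = 0.0295). Stag2 missed the threshold with DESeq2 (0.0870) and when any library but control replicate 1 or knockdown replicate 3 was left out (0.103 to 0.118). The list's median was -0.09, against -0.01 over all tested genes. Of 22 Cdx and retinoic acid genes, the upstream inputs to the code in the embryo, 11 were tested and 4 were lower, where 8.04% of all tested genes were, with a median of -0.05. They were the receptors Rxra (15.9 ± 0.91 to 10.2 ± 0.40 CPM, SD, n = 3 each, log2 fold change -0.64, edgeR adjusted p = 0.0012), Rarg (-0.41, 0.0012) and Rara (-0.31, 0.0162), and the retinal reductase Dhrs3 (-0.50, 0.0029). Rara missed the threshold after GC and length correction (0.136) and when control replicate 2 (0.0884), control replicate 3 (0.0681), knockdown replicate 2 (0.0634) or knockdown replicate 3 (0.0573) was left out, and the others held in every alternative run. Cdx1, Cdx2 and Cdx4 had at most 1 count in a library.

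Of 13 genes known downstream of Hox proteins in endothelial cells, 9 were tested, 1 was higher and 2 were lower, against 16.8% over all tested genes, with a median log2 fold change of -0.11. Mmp14, a membrane-bound matrix metalloproteinase, fell from 43.9 ± 3.52 to 32.6 ± 3.41 CPM (SD, n = 3 each, log2 fold change -0.43, edgeR adjusted p = 0.0050), and Plaur, the urokinase receptor, by a log2 fold change of -0.32 (0.0055). Ptgs2, cyclooxygenase-2, rose by 0.38 (0.0072), a call lost without control replicate 2 (0.0528). Of 11 genes flanking the clusters 1 of 7 tested was higher, Lnpk beside Hoxd (32.7 ± 1.02 to 42 ± 1.32 CPM, SD, n = 3 each, log2 fold change 0.36, edgeR adjusted p = 0.0034), and their median was 0.03. Over the 8 lists 6 of 88 tested genes were higher and 14 lower, against 8.73% higher and 8.04% lower over all tested genes, with a median of -0.08 against -0.01. These shares, like those beside the single lists and the markers, are not matched for level. With a filter of 10 CPM in 3 libraries, 1100 of 8743 tested genes were higher and 1021 lower. In that run 8 genes of the lists were higher and 15 lower.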

How the data were processed

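The table of mRNA libraries, made from tagmented cDNA per the labels' protocols, holds estimated counts per gene as deposited by the authors, 29.0% of its nonzero values not whole (tolerance 1e-06), and CPM values, which the authors deposited beside them. Per the submitters' processing notes, the tools were STAR 2.7.11, SAMtools 1.22.1, fastp 0.24.0, MultiQC 1.32 and FastQC 0.12.1, on GRCm39. Counter, strand setting and annotation were not given in the sources used here. Counts were rounded, 92 spike-in rows left out, and filterByExpr kept 13372 genes, and TMM factors scaled the libraries. Knockdown was set against control by the quasi-likelihood test of edgeR 4.0.16 (R 4.3.3), with no block, and p-values were adjusted by Benjamini-Hochberg over those genes, with a threshold of 0.05. Means ± SD are TMM-scaled CPM, except the sums over Hox genes or markers and the levels per kilobase, which use plain CPM. Other runs used library-size, RLE or upper-quartile scaling, no filter, 10 CPM in 3 libraries, DESeq2 1.42.0, limma-voom (limma 3.58.1), GC and length offsets (mgcv 1.9.3), rounding down, a replicate block, a robust dispersion prior (chosen after seeing the data) and each library left out. The edgeR script was tested on simulated data. Homeoboxes came from GENCODE M21 on GRCm38 and promoters from RefSeq on GRCm38.p6; coordinates of genes are those of the deposited table. The members and lists were chosen with earlier results of these data known. The rule named every Hox gene at 1 CPM in any library, Fat4, up to 4 called genes of each list by smallest adjusted p, all tested cofactors and tested noncoding rows. Values of a few genes it names, and some sequences, are not reported here. Figures were drawn with matplotlib 3.10.9.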

Additional observations from a re-analysis of the deposited data

How the results depend on the processing

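The 1 Hox gene that passed became 2 with library-size scaling, 0 at 10 CPM in 3 libraries, where Hoxc13 is no longer tested, 0 with DESeq2, and 0 to 2 when 1 library was left out. Over all genes 2242 passed, and 922 to 3032 without 1 library; over all settings run, the 20 genes that passed in the 8 lists ranged from 10 to 26, the 2 of Polycomb complex 2 from 0 to 3, the 3 of Polycomb complex 1 from 0 to 5, the 4 of trithorax from 2 to 5, and the 1 of CTCF and cohesin from 0 to 2. The log2 fold change of Fat4 was no longer past the threshold with limma-voom (-1.04), GC and length offsets (-1.01) and the exact permutation test (-1.17), and ran from -1.44 to -0.82 without 1 library. The sign turned without 1 library for 3 genes, whose log2 fold changes then ran from -0.32 to 0.18 for Hoxa9, from -0.15 to 0.038 for Hoxa10 and from -0.065 to 0.26 for Gm53. The cause of these changes was not tested. Same-numbered libraries of the 2 groups did not deviate together (correlations -0.21, -0.05 and -0.05). These values show no pairing by number but cannot exclude it, since deviations within groups of 3 constrain one another. With a replicate block 1958 genes passed, the Hox count stayed at 1 and Hoxc13 stood at -0.78 (edgeR adjusted p = 0.0463). Cbx2 (0.0586) and Kmt2a (0.0554) no longer passed with the block, which ended or turned no other call of a named gene. The code of 6 genes stayed 6 without any 1 library, but its number could not have gone down. A gene at 1 CPM or more in every library stays so in any smaller set of them, so these runs do not test the code. Depth limits the scarce genes, 18 of which never went above 3 counts in a library.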
